A study of Mus musculus with 24 samples.

Results

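Gpr50, which encodes a G protein-coupled receptor of the melatonin receptor family, was followed mouse by mouse in epididymal white fat. Its transcript was read by 1 probe set of the 35556 on the array, and Gpr50 is 1 of the 19938 named genes tested. The gene was selected on its lard minus fish oil differences in these same arrays, under both bacterial states. Those diet differences are therefore given as a description, with no test. The study measured 24 male wild-type C57Bl/6 mice, 6 in each of 4 groups, and each array held the RNA of 1 mouse. All mice were 11 weeks old at the start and ate a diet with 45% of its energy as fat for 11 weeks. The fat was either menhaden fish oil or lard, in otherwise isocaloric diets. Each mouse was fasted for 4 hours. The groups were conventional mice fed fish oil, germ-free mice fed fish oil, conventional mice fed lard and germ-free mice fed lard. No group ate a low-fat diet, so each diet was measured only against the other. The labels name no cage, colony or array batch, so none could be tested against bacterial status.

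Gpr50 differs from its relatives in the melatonin receptor family in that it does not bind melatonin, and no natural ligand is established for it. It is best known from the hypothalamus and the pituitary, where it has been tied to energy balance and body temperature, and it has been reported to pair with the melatonin receptor encoded by Mtnr1a and with a receptor for transforming growth factor beta. Epididymal fat, the depot studied here, gains immune cells, macrophages above all, as it expands on a diet rich in saturated fat. Because each array read the whole tissue, a change in the number of cells of a type and a change in RNA per cell cannot be told apart.

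The stretch of 250 bases before the start of Gpr50 on the X chromosome (chrX:71663417-71663666, plus strand, RefSeq, build GRCm38.p6) is shown because the transcript that begins at its end had the largest diet difference of all genes tested in either bacterial state. Lower case is used throughout except for the motif matches, which stand in capitals.
Gpr50: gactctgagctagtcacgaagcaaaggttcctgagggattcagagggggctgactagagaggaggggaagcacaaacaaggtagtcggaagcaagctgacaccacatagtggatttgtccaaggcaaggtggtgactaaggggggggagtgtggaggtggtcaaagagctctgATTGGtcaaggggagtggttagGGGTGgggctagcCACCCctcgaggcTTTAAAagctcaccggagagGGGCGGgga
From the 5′ end the capitals mark a CCAAT box read on the other strand from 77 to 73 bases before the start, a CACCC box on the other strand from 55 to 51, a CACCC box on the printed strand from 42 to 38, the letters TTTAAA from 29 to 24 and a GC box (GGGCGG) from 9 to 4 bases before the start. None of these matches overlap. Both strands were searched for 13 motifs, chosen with the sequence in view, and among 32851 RefSeq promoter windows of the same length CCAAT occurred in 33.8%, CACCC in 52%, TTTAAA in 12.1% and GGGCGG in 32.7%. No match was found here for TATAAA (present in 12.4% of windows), CACGTG (6.02%), AGGTCA (14%), AGAACA (16.1%), TGACG (17.8%), TGANTCA (6.75%), GGANTTTCC (1.07%), GAGGAAG (10.6%) or GTCTAGAC (0.167%). The window held 56.8% G or C against a median of 52.4% over all windows, and 5 CpG dinucleotides against a median of 6. A match in this window is a description of its letters, and no binding was measured in this study.

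In fish oil-fed conventional mice, mice 1 to 6 had Gpr50 signals of 7.34, 6.06, 5.21, 5.61, 5.32 and 5.86 on the log2 scale. In fish oil-fed germ-free mice the signals were 6.05, 7.01, 8.29, 7.23, 8.0 and 6.06. In lard-fed conventional mice they were 11.39, 9.46, 10.39, 10.50, 11.01 and 11.64. In the germ-free group fed lard the signals were close together, at 11.78, 11.77, 12.08, 11.98, 12.30 and 12.11. The 12 lard-fed mice all lay above the 12 fish oil-fed mice, with a gap of 1.17 log2 between the lowest lard-fed mouse and the highest fish oil-fed one; 3.16% of the 19938 genes separated the diets in this direction without overlap. The order of the group means was 5.90 ± 0.77 log2 in fish oil-fed conventional mice, 7.11 ± 0.94 in fish oil-fed germ-free mice, 10.73 ± 0.79 in lard-fed conventional mice and 12 ± 0.21 in lard-fed germ-free mice (SD, n = 6 in each). The neighbouring fish oil groups overlapped, with 2 germ-free mice above every conventional mouse and 4 conventional mice below every germ-free mouse. Fish oil-fed germ-free and lard-fed conventional mice did not overlap. The lard groups did not overlap either, but the gap between them was 0.12 log2, smaller than the SD of the conventional mice.

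**Figure D1:**
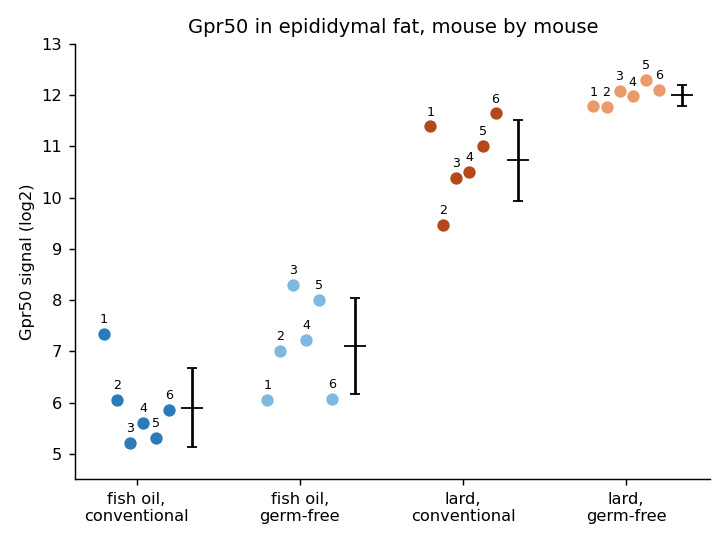
Gpr50 signal on the log2 scale (vertical axis) in each mouse of the 4 diet by status groups (horizontal axis). Points are mice labelled with their number, and the bars beside them are the group mean ± SD (n = 6); all 12 lard-fed mice lie above all 12 fish oil-fed mice, and the lard-fed germ-free mice have the narrowest spread (SD 0.21).

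In conventional mice Gpr50 was 4.83 ± 0.38 log2 higher with lard than with fish oil (SE, n = 6 in each group), a ratio of 28.5 with a 95% interval from 16.5 to 49.4. In germ-free mice the difference was 4.89 ± 0.38 log2, a ratio of 29.7 with an interval from 17.2 to 51.5. The diet difference in conventional mice minus that in germ-free mice was -0.06 ± 0.54 log2, with a 95% interval from -1.18 to 1.06, so the interval reaches from a diet ratio 2.27-fold smaller to one 2.09-fold larger in conventional than in germ-free mice. The signals of fish oil-fed conventional mice 2 to 6 lay below every array median (7.09 to 7.20 log2). Those of fish oil-fed germ-free mice 1, 2 and 6 did so too. Whether these signals stood above the background of the array was not tested, so the diet ratios may be lower bounds. In geometric means the signal went from 59.7 to 1702 in conventional mice and from 137.9 to 4097 in germ-free mice. Gpr50 ranked 1st of 19938 genes by size of the diet difference in each bacterial state. The next rises in conventional mice were those of Lipf, gastric lipase (3.27 log2), Tm4sf19, a tetraspan membrane protein (2.63), and Tnip3, an inhibitor of NF-kappaB signalling (2.56). In germ-free mice they were Oxtr, the oxytocin receptor (3.34), Tnip3 (2.74) and Lipf (2.68).

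**Figure D2:**
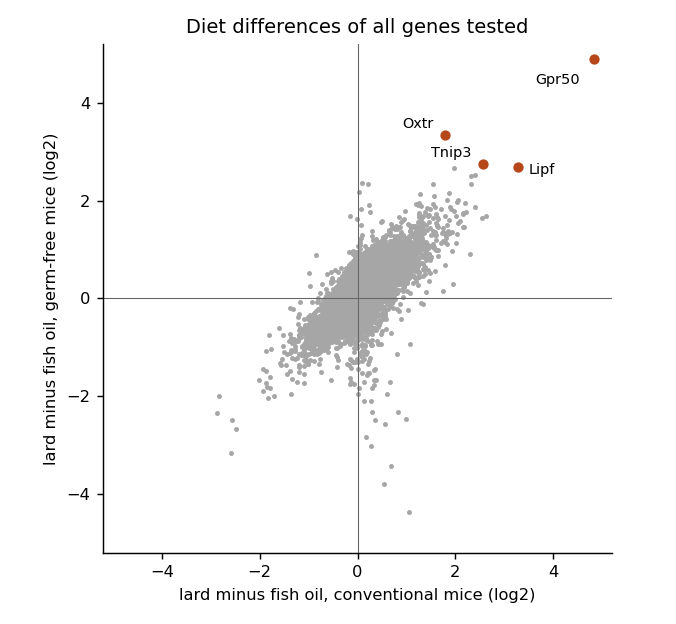
Lard minus fish oil difference in conventional mice (horizontal axis, log2) against that in germ-free mice (vertical axis, log2); each point is 1 of 19938 genes. Gpr50 stands alone at 4.83 and 4.89, with Lipf, Tnip3 and Oxtr the next largest rises by the mean of both differences.

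Bacterial status was a comparison that the selection of the gene did not use, since in a balanced design its average over diets is independent of both diet differences. Gpr50 was lower in conventional than in germ-free mice by 1.24 ± 0.27 log2 averaged over the diets (a difference of -1.24 log2; SE, limma with Benjamini-Hochberg adjustment over 19938 genes, adjusted p = 0.0021). Germ-free mice thus had 2.36-fold more signal, with a 95% interval from 1.60 to 3.48. The mean over both diets was 8.32 log2 in conventional and 9.55 log2 in germ-free mice. In size this was the 13th largest status difference, and 8.17% of genes were lower and 11.4% higher in conventional mice at the same threshold. With lard the status difference was -1.27 ± 0.38 log2 and with fish oil -1.21 ± 0.38 log2 (SE), 2.41-fold and 2.31-fold more in germ-free mice. The fish oil value rests in part on signals below every array median, whose distance from background was not tested. All 6 lard-fed germ-free mice were above all 6 lard-fed conventional mice, which 1.6% of genes showed, whereas the fish oil groups overlapped. The call held when any 1 of the 24 mice was left out (largest adjusted p = 0.0047, limma). It was lost when the mean of lipid-associated macrophage markers in each mouse was added to the fit as a covariate, where the difference was -0.48 log2 (limma adjusted p = 0.38), and with the macrophage marker mean as covariate it was -0.81 log2 (limma adjusted p = 0.031).

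In 3 of the 4 groups Gpr50 varied more among mice than nearly all other genes. Its residual SD over the 4 groups was 0.73 log2 against a median of 0.14 over all genes, and 77 genes had a larger one. Within groups its SD exceeded that of 99.8% of genes in fish oil-fed conventional, 99.9% in fish oil-fed germ-free and 99.6% in lard-fed conventional mice. In lard-fed germ-free mice its SD of 0.21 log2 exceeded that of 83.2% of genes, against a median gene SD of 0.12. The distance from the lowest to the highest mouse was 2.12, 2.25 and 2.18 log2 in the first 3 groups and 0.53 log2 in lard-fed germ-free mice. Whether signals near 12 log2 approach the upper limit of the probes was not tested; the highest value of any probe set on any array was 14.59 log2.

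Markers of macrophages were compared between the same groups as Gpr50. Macrophage markers, among them Adgre1 (a surface receptor that defines mouse macrophages), Csf1r (the macrophage growth factor receptor) and Itgam (an integrin of myeloid cells), rose with lard in 8 of 10 cases and fell in 1 in conventional mice, and rose in 8 and fell in 2 in germ-free mice. Their median differences were 0.73 and 0.91 log2, against -0.04 and -0.08 over all genes, and 15.4% of all genes were higher and 15.6% lower with lard in conventional mice, 20.4% higher and 27.1% lower in germ-free mice. Adgre1 rose by 1.37 ± 0.21 log2 in conventional and 1.76 ± 0.21 in germ-free mice (SE, limma adjusted p = 2.3e-05 and 9.5e-07). Averaged over diets, 4 of the 10 markers were lower and 0 higher in conventional than in germ-free mice. The shares of all genes were 8.17% and 11.4%. The macrophage marker mean ran from 9.75 to 10.18 log2 in fish oil-fed conventional, 9.78 to 10.40 in fish oil-fed germ-free, 10.25 to 10.98 in lard-fed conventional and 10.62 to 11.11 in lard-fed germ-free mice. Lipid-associated macrophages gather around dying fat cells. Of their 8 measured markers, 7 were higher with lard and 0 lower in conventional mice and 4 higher and 0 lower in germ-free mice. By bacterial status 6 of 8 were lower and 0 higher in conventional than in germ-free mice, against 8.17% and 11.4% of all genes. Trem2, a lipid-sensing receptor of these cells, rose with lard by 2.01 ± 0.29 log2 in conventional and 1.14 ± 0.29 in germ-free mice (SE, limma adjusted p = 9.7e-06 and 0.0024). Atp6v0d2, a proton pump subunit, differed by -1.43 ± 0.25 log2 between conventional and germ-free mice (SE, limma adjusted p = 0.00033).

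With the macrophage marker mean as a covariate, the Gpr50 diet difference was 3.50 log2 in conventional and 3.51 log2 in germ-free mice. With the lipid-associated macrophage mean it was 3.57 and 4.24 log2. These covariates were chosen after the data were seen. All 6 fish oil-fed germ-free mice and lard-fed conventional mice 1 to 4 had lipid-associated macrophage means in nearly the same range, 11.13 to 11.66 log2 and 11.06 to 11.46 log2. Gpr50 was 6.05 to 8.29 log2 in the former and 9.46 to 11.39 log2 in the latter, without overlap. Lard-fed conventional mice 5 and 6, at 12.24 and 12.35 log2, were left out for their higher marker means. The mice compared were less alike on some other lists. Macrophage means were 9.78 to 10.40 log2 in the former and 10.25 to 10.53 in the latter. Cell division means were 7.21 to 7.67 and 8.08 to 8.74, and adipocyte means 12.90 to 13.06 and 12.69 to 12.78. Liver transcript means were 8.94 to 10.75 log2 in the former and 6.91 to 9.05 in the latter. Adipose progenitor means overlapped, at 9.88 to 10.29 and 10.11 to 10.31. No marker of these lists had a value of 0, since the deposited scale has none. The part that any cell type had in the Gpr50 signal was not tested, as the tissue was not separated into cells.

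**Figure D3:**
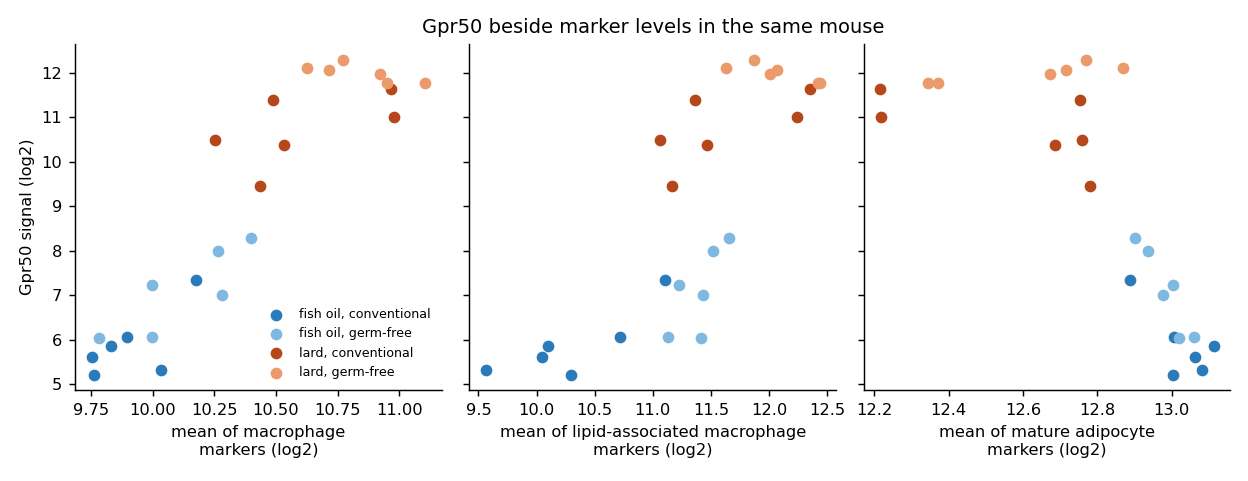
Gpr50 signal (vertical axis, log2) against the mean of 10 macrophage, 8 lipid-associated macrophage and 8 mature adipocyte markers (horizontal axes, log2) in the same mouse; each point is 1 of 24 mice, coloured by group. In the middle panel the fish oil-fed germ-free mice and 4 of the lard-fed conventional mice share a marker range, while Gpr50 lies at 6.05 to 8.29 log2 in the former and at 9.46 to 11.39 log2 in the latter. Lard-fed conventional mice 5 and 6 lie above that range, and in the right panel those 4 mice and the fish oil-fed germ-free mice share none.

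Fat cell markers were checked against the label of the tissue. Adiponectin (Adipoq), perilipin (Plin1) and the other 6 measured markers of mature adipocytes averaged 12.22 to 13.11 log2 across mice. With lard 8 of the 8 were lower in conventional mice and 6 of the 8 in germ-free mice, with medians of -0.37 and -0.31 log2. Adipoq fell by 0.46 ± 0.12 log2 in conventional mice (SE, limma adjusted p = 0.0052). With the adipocyte mean as covariate the Gpr50 diet difference was 4.18 log2 in conventional and 4.38 log2 in germ-free mice, and the status difference -1.25 log2. Mesothelial markers, of the layer that covers the depot, were lower with lard in 6 of 6 in conventional and 4 of 6 in germ-free mice. The adipocyte and mesothelial counts stand against the shares of all genes lower with lard, 15.6% (conventional) and 27.1% (germ-free). Cell division genes were higher in 6 of 6 in both, with Bub1, a mitotic checkpoint kinase, up by 1.61 ± 0.24 and 1.73 ± 0.24 log2 (SE, limma adjusted p = 1.3e-05 and 4.2e-06). The shares of all genes higher with lard were 15.4% (conventional) and 20.4% (germ-free). Liver transcripts, which encode plasma proteins, averaged 9.92 ± 0.71 log2 in fish oil-fed germ-free mice (SD, n = 6), against 7.29 ± 0.87 in fish oil-fed conventional mice. The highest liver means of that group were in mice 1 and 6, at 10.75 and 10.63 log2, and these were its mice of lowest Gpr50 signal. With the liver mean as covariate the Gpr50 difference with diet in germ-free mice was 4.39 log2. Transcripts of intestinal epithelium were highest in lard-fed germ-free mouse 4, at 9.86 log2, whose Gpr50 signal of 11.98 log2 lay inside its group. Leaving out mice 2, 4 and 5 of the lard-fed germ-free group, the Gpr50 diet difference in germ-free mice was 4.88 log2, and without lard-fed conventional mice 5 and 6 it was 4.54 log2 in conventional mice.

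The genes whose pattern over the 24 mice was most like that of Gpr50 were ranked by Pearson r on the log2 values, given as a measure of likeness with no test; the mice share 4 group means, so a gene that differs strongly by diet has a high r. The highest were Dock8, a guanine nucleotide exchange factor of immune cells (r = 0.98), Pltp, phospholipid transfer protein (0.97), Lipf (0.96), Ccn5, a matricellular protein (0.96), Ddah1, which degrades an inhibitor of nitric oxide synthesis (0.96), and Slc7a8, an amino acid transporter (0.95). Over all genes the median r was -0.21, with a 5th percentile of -0.79 and a 95th of 0.83, and 289 genes were above 0.9. Dock8 ran from 8.54 to 9.62 log2 in fish oil-fed conventional mice (median 8.95), 9.20 to 9.76 in fish oil-fed germ-free (9.52), 10.45 to 10.74 in lard-fed conventional (10.62) and 10.77 to 11.10 in lard-fed germ-free mice (11.07). Its 4 groups followed the order of those of Gpr50, and its diet differences were 1.63 ± 0.12 and 1.503 ± 0.12 log2 (SE, limma adjusted p = 1.8e-09 and 7.1e-09). Dock8 was also lower in conventional mice averaged over diets, by 0.46 ± 0.08 log2 (SE, limma adjusted p = 0.00044), as were Pltp by 0.37 ± 0.09 (0.0029) and Lipf by 0.81 ± 0.22 (0.011). Lipf, whose product splits triglycerides in the stomach, ran from 5.49 to 7.78 log2 in fish oil-fed conventional mice and from 10.04 to 10.53 in lard-fed germ-free mice. Genes that ran most opposite to Gpr50 were Thbd, thrombomodulin (r = -0.95), Gsta4, a glutathione transferase that clears lipid peroxidation products (-0.95), Ndufa5, a subunit of respiratory complex I (-0.95), and Drap1, a repressor of transcription (-0.95). Gsta4 fell with lard by 2.56 ± 0.24 log2 in conventional and 2.48 ± 0.24 in germ-free mice (SE, limma adjusted p = 4e-08 and 6e-08).

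**Figure D4:**
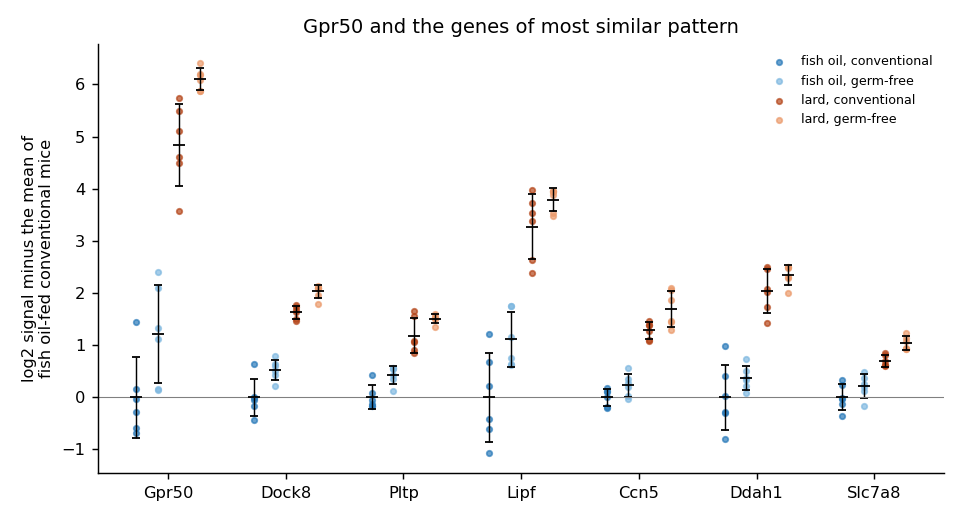
Signal of Gpr50 and of the 6 genes with the highest r over 24 mice, each as the log2 difference from its own mean in fish oil-fed conventional mice (vertical axis), so that levels are not compared between genes. Small points are mice, and bars are the group mean ± SD (n = 6); the groups keep 1 order in all 7 genes, and Gpr50 has the largest differences, 4.83 log2 between the conventional groups.

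Among rises, the remaining genes that follow Gpr50 by the mean of both diet differences were Tnip3 (2.65 log2), Oxtr (2.56), Cdkl4, a protein kinase (2.46), Slc5a7, the choline transporter (2.41), and Cd72, a receptor of B cells and macrophages (2.33), after Lipf (2.98). The corresponding mean for Gpr50 was 4.86 ± 0.27 log2 (SE).

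How a mouse deviated from the mean of its own group is a measure that the selection did not use. The genes whose deviations were most like those of Gpr50 were Abhd2, a lipase (r = 0.81), Marchf1, a ubiquitin ligase that removes MHC class II from the cell surface (0.75), Pltp (0.72), Itm2c, a membrane protein (0.72), Mfge8, a bridge to dying cells (0.72), and Sla, an adaptor of immune receptors (0.72). The most opposite were Thap11, a transcription factor (-0.74), Thbd (-0.73), Ptpru, a receptor phosphatase (-0.70), and Tmem79, a membrane protein (-0.69). Over all genes the median was -0.01, with a 5th percentile of -0.38 and a 95th of 0.41, and no test was made of these ranks.

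The deviations were tested against the means of 25 gene lists, permuting the Gpr50 deviations within groups 100000 times (two-sided permutation tests). The highest correlations were with macrophage markers (Pearson r = 0.58, permutation p = 0.0092; Spearman rho = 0.55, permutation p = 0.015) and lipid-associated macrophage markers (r = 0.57, permutation p = 0.0056; rho = 0.51, permutation p = 0.020). After Benjamini-Hochberg adjustment over the 25 lists both permutation p-values for r were 0.11, and none of the lists passed the threshold. Genes of G protein and cyclic AMP signalling followed (r = 0.52, permutation p = 0.019, adjusted 0.16; rho = 0.43, permutation p = 0.056), then lipid and metabolite receptors (r = 0.43, permutation p = 0.047, adjusted 0.29; rho = 0.44, permutation p = 0.039). The other 21 lists lay between -0.35, for mature adipocytes, and 0.37, for the TGF-beta family. Without the 2 mice farthest from the median of the list, r was 0.54 for macrophages and 0.37 for lipid-associated macrophages.

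Within groups the sign was not the same throughout. For lipid-associated macrophage markers r was 0.83 in fish oil-fed conventional (rho = 0.66), 0.72 in fish oil-fed germ-free (rho = 0.71) and 0.66 in lard-fed conventional mice (rho = 0.60), and -0.83 in lard-fed germ-free mice (rho = -0.89). For macrophage markers r was 0.71, 0.84, 0.58 and -0.78, with rho of 0.54, 0.71, 0.49 and -0.83. For mature adipocyte markers the signs were turned, with r of -0.75, -0.94, -0.60 and 0.88 and rho of -0.26, -0.89, -0.71 and 0.94. The exact permutation p-values of these 12 within-group r values ran from 0.011 to 0.24 (those of rho from 0.017 to 0.66), and none of the r values passed after Benjamini-Hochberg adjustment over the 12 (lowest 0.13). The lard-fed germ-free mice, in which the sign differed, were also those with the narrowest range of Gpr50. The difference between groups in r was not tested. Of the 25 lists only those above were tested within groups, and others had r as large. Liver transcripts had -0.91 in fish oil-fed germ-free and T cell genes 0.91 in fish oil-fed conventional mice. Cell division genes also turned in sign, with 0.44, 0.66, 0.50 and -0.85 in the same order of groups. Lipid and metabolite receptors instead had 0.83, 0.86, -0.53 and 0.87. Fish oil-fed conventional mouse 1, the highest of its group in Gpr50 at 7.34 log2, was also the highest in macrophage (10.18 log2) and lipid-associated macrophage markers (11.11 log2). Fish oil-fed germ-free mouse 3, at 8.29 log2, was likewise the highest of its group in both, at 10.40 and 11.66 log2. In lard-fed conventional mice 5 and 6 had the highest marker means, 12.24 and 12.35 log2 for lipid-associated macrophages, but mouse 1, at 11.36 log2, had a Gpr50 signal of 11.39 log2 that lay between theirs.

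The signals of the receptors that do bind melatonin did not follow Gpr50. Those of Mtnr1a and Mtnr1b lay below every array median (7.09 to 7.20 log2) in all mice. Whether they stood above the background of the array was not tested. Mtnr1a ran from 5.17 to 5.52 log2 in fish oil-fed conventional mice (median 5.27), 5.19 to 5.44 in fish oil-fed germ-free (5.27), 5.09 to 5.26 in lard-fed conventional (5.196) and 5.05 to 5.31 in lard-fed germ-free mice (5.23), so that all groups overlapped. Its diet differences were -0.10 ± 0.06 and -0.08 ± 0.06 log2 (SE, limma adjusted p = 0.22 and 0.27). Mtnr1b differed by -0.02 ± 0.08 log2 in conventional mice (limma adjusted p = 0.87) and fell with lard by 0.25 ± 0.08 in germ-free mice (limma adjusted p = 0.012), a call that was lost when quantile normalisation was repeated (-0.13 log2, limma adjusted p = 0.099). Of 7 measured genes of melatonin synthesis and reception, 2 were higher and 0 lower with lard in conventional mice and 2 were higher and 1 lower in germ-free mice, and 0 differed by bacterial status at the threshold. Over all genes the corresponding diet shares were 15.4% higher and 15.6% lower for conventional and 20.4% and 27.1% for germ-free mice. By status 11.4% of all genes were higher and 8.17% lower in conventional mice. In so few genes the counts are not read as a result about the list. Those higher were Tph2, a tryptophan hydroxylase, by 0.74 ± 0.09 and 0.58 ± 0.09 log2 (SE, limma adjusted p = 8.2e-07 and 1.2e-05), and Nqo2, a quinone reductase that binds melatonin, by 0.46 ± 0.10 and 0.98 ± 0.10 (0.0013 and 2.9e-07). The Tph2 means with fish oil, 6.49 log2 in conventional and 6.66 in germ-free mice, lay below every array median. Their distance from background was not tested. Tph1, the other tryptophan hydroxylase listed, differed by -0.05 ± 0.09 and 0.08 ± 0.09 log2 (limma adjusted p = 0.76 and 0.47). Ddc differed by -0.11 ± 0.10 and -0.15 ± 0.10 (0.47 and 0.23). Aanat, the enzyme that sets the rate of melatonin synthesis, differed by 0.01 ± 0.08 and -0.18 ± 0.08 log2 (limma adjusted p = 0.94 and 0.056).

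Among proteins reported to pair with or bind Gpr50, Rtn4, a membrane protein that limits nerve growth, was higher with lard by 0.37 ± 0.11 log2 in conventional and 0.47 ± 0.11 in germ-free mice (SE, limma adjusted p = 0.012 and 0.0013). Tgfbr1, the type I receptor for transforming growth factor beta, rose by 0.89 ± 0.17 log2 with lard in germ-free mice (limma adjusted p = 0.00017) and differed by 0.32 ± 0.17 in conventional mice (0.16); it was lower in conventional mice averaged over diets by 0.36 ± 0.12 (0.033), a call lost with the mouse number as a block (limma adjusted p = 0.057). Nr3c1, the glucocorticoid receptor, fell by 0.42 ± 0.07 log2 in conventional mice (limma adjusted p = 5.6e-05) and differed by -0.04 ± 0.07 in germ-free mice (0.67). Kat5, an acetyltransferase also called TIP60, differed by -0.10 ± 0.05 and 0.02 ± 0.05 log2 with diet (limma adjusted p = 0.15 and 0.79) and was higher in conventional mice averaged over diets by 0.16 ± 0.04 (0.0035); the first of these passed with each array centred on its median (-0.14 log2, limma adjusted p = 0.041). Of the 6 partners, with Mtnr1a and Mtnr1b counted, 1 was higher and 1 lower with lard in conventional mice and 2 were higher and 1 lower in germ-free mice, against 15.4% and 15.6% of all genes in the former and 20.4% and 27.1% in the latter. The largest difference was the 0.89 log2 of Tgfbr1.

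The wider pathways around Gpr50 held genes called in both directions, as did the genes of the array in general. With lard 15.4% of all genes were higher and 15.6% lower in conventional mice, and 20.4% higher and 27.1% lower in germ-free mice, and the counts that follow stand against these shares. Of 24 measured genes of the TGF-beta family, 8 were higher and 3 lower with lard in conventional mice and 11 higher and 1 lower in germ-free mice (medians 0.09 and 0.17 log2); the 11 became 5 when quantile normalisation was repeated. Acvr1c, an activin-type receptor of fat cells, fell by 1.07 ± 0.16 and 0.72 ± 0.16 log2 (SE, limma adjusted p = 1.7e-05 and 0.00081), and Tgfb1, the ligand, rose by 0.86 ± 0.12 and 0.43 ± 0.12 (6.7e-06 and 0.0051). Of 13 glucocorticoid receptor and target genes, 2 were higher and 5 lower with lard in conventional mice, and 1 was higher and 5 lower in germ-free mice. The 2 higher in conventional mice are near the share of all genes. By bacterial status 7 were lower and 0 higher in conventional than in germ-free mice, against 8.17% and 11.4% of all genes. Dusp1, a phosphatase of stress kinases, was among those lower in conventional mice, by 0.80 ± 0.15 log2 (SE, limma adjusted p = 0.00048). Of 26 genes of G protein and cyclic AMP signalling, 10 were higher and 4 lower with lard in conventional mice and 8 higher and 7 lower in germ-free mice, where the 8 became 4 with repeated quantile normalisation; the 4 lower in conventional and the 7 lower in germ-free mice are near the shares of all genes. Adcy7, an adenylyl cyclase of immune cells, rose by 1.17 ± 0.16 and 1.28 ± 0.16 log2 (limma adjusted p = 6.6e-06 and 1.7e-06), while Pde3b, the phosphodiesterase through which insulin lowers cyclic AMP in fat cells, fell by 1.08 ± 0.15 and 0.65 ± 0.15 (5.1e-06 and 0.00086).

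Genes of energy balance, the function Gpr50 is best known for, were called in both directions. Of 12 genes of leptin signalling and thermogenesis, 3 were higher and 4 lower with lard in conventional mice (15.4% and 15.6% of all genes) and 2 higher and 5 lower in germ-free mice (20.4% and 27.1% of all genes); the 2, near the share of all genes, became 4 with repeated quantile normalisation. Cidea, a lipid droplet protein of brown-like fat cells, fell by 1.81 ± 0.23 and 0.75 ± 0.23 log2 (SE, limma adjusted p = 2.5e-06 and 0.010), and Ppargc1a, a regulator of mitochondrial genes, by 1.23 ± 0.16 and 0.53 ± 0.16 (3.1e-06 and 0.0084). Of 5 genes tied to fat expansion, 3 were higher and 1 lower in both bacterial states. Mest, a marker of fat cell enlargement, rose by 1.25 ± 0.14 and 1.36 ± 0.14 log2 (limma adjusted p = 3.5e-07 and 1.2e-07), Lep, leptin, by 0.48 ± 0.12 and 0.36 ± 0.12 (0.0037 and 0.019), and Nnat, neuronatin, fell by 0.93 ± 0.20 and 0.84 ± 0.20 (0.00066 and 0.0012).

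Other orphan receptors of the same class had smaller diet differences than Gpr50, as had every other gene tested. Gpr50 was chosen for its difference, so this is no result about the class. Of 49 measured, 8 were higher and 2 lower with lard in conventional mice, against 15.4% and 15.6% of all genes. In germ-free mice 6 were higher and 16 lower, against 20.4% and 27.1%. The 8 higher in conventional mice are near the share of all genes. Centring each array on its median gave 7 lower in conventional mice, and repeated quantile normalisation gave 6 lower in germ-free mice. The largest of those that changed the same way in both were Gpr65, an acid-sensing receptor of immune cells, up by 1.05 ± 0.20 and 0.92 ± 0.20 log2 (SE, limma adjusted p = 0.00024 and 0.00063), and Gpr176, a receptor of the circadian clock, up by 0.81 ± 0.24 and 0.83 ± 0.24 (0.010 and 0.0059). Gpr75 fell by 0.46 ± 0.09 and 0.36 ± 0.09 (0.00022 and 0.0019). Among 28 receptors for lipids and metabolites, 8 were higher and 7 lower with lard in conventional mice and 8 higher and 8 lower in germ-free mice. The same shares of all genes apply, and the 8 lower in germ-free mice are near theirs. Ptger4, a prostaglandin E receptor, rose by 0.93 ± 0.11 and 0.73 ± 0.11 log2 (limma adjusted p = 1.1e-06 and 1.4e-05), and Ffar4, a receptor for long-chain fatty acids that include those of fish oil, fell by 0.95 ± 0.11 and 0.44 ± 0.11 (8.2e-07 and 0.0024).

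The genes that lie beside Gpr50 on the X chromosome are described by their own diet differences. Every other gene tested differed less by diet than Gpr50, which was chosen for its difference. The smaller differences of its neighbours are therefore no result about this stretch of the chromosome. In gene order the 5 nearest measured before it are Mamld1, Mtm1, Mtmr1, Cd99l2 and Hmgb3, and the 5 after it are Vma21, Gm1141, Prrg3, Fate1 and Cnga2. In conventional mice 1 of the 10 was higher and 1 lower with lard at the threshold, against 15.4% and 15.6% of all genes. Mamld1, a co-activator of transcription, rose by 0.50 ± 0.12 log2 (SE, limma adjusted p = 0.0024), and Hmgb3, a chromatin protein and the immediate neighbour, fell by 0.55 ± 0.08 (1.4e-05). Centring each array on its median put a further 2 past the threshold as lower, Mtmr1 (-0.31 log2, limma adjusted p = 0.035) and Cd99l2 (-0.17 log2, limma adjusted p = 0.022). In germ-free mice Mamld1, Mtmr1, Cd99l2 and Vma21 were higher, by 0.31 to 0.51 log2, and Hmgb3 and Gm1141 lower, by 0.56 and 0.21 log2, the last of which was lost with repeated quantile normalisation (-0.10 log2, limma adjusted p = 0.21); of all genes 20.4% were higher and 27.1% lower there. Vma21, the next gene on the other side and an assembly factor of the proton pump, rose by 0.51 ± 0.14 in germ-free mice (limma adjusted p = 0.0048) and differed by 0.04 ± 0.14 in conventional mice (0.88). Hmgb3 was higher in conventional than in germ-free mice averaged over diets, by 0.32 ± 0.06 log2 (limma adjusted p = 0.00037), the opposite direction to Gpr50.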

How the data were processed

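RNA of epididymal white fat from 24 mice was labelled with biotin and read on one-colour arrays, 1 array for each mouse, per the labels' protocols. The deposited values are log2 signals that the authors obtained with RMA, per the submitters' processing notes; the RMA version and probe annotation were not given in the sources used here. Array medians lay between 7.09 and 7.20 log2, arrays of one group correlated at 0.980 to 0.997, and 0 pairs were identical. Arrays give no read depth, and their number limits the precision.

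Of 35556 probe sets, 21789 had 1 gene symbol in the platform annotation, 1621 had several and 12146 none; 21698 symbols were updated by Entrez ID through a RefSeq gene table. Where probe sets shared a gene, that of highest mean stood for it, leaving 19938 genes. Group means were fitted with limma 3.58.1 (lmFit, eBayes) in R 4.3.3 over all 4 groups, with Benjamini-Hochberg adjustment over all genes and a threshold of 0.05; the procedure was tested on simulated data. Correlations used numpy 2.4.6.

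The gene and the lists were chosen with earlier results of these data known. Gpr50 was proposed for its diet differences, so only bacterial status and deviations from group means were tested. Named genes were the 6 highest and 4 lowest by r with Gpr50 over 24 mice, the same by deviations, the 6 next largest rises by mean diet difference, all melatonin and partner genes, the 5 nearest genes on each side (the rule leaves out predicted-gene names such as those that start with Gm), and up to 4 of the largest members of each list that passed in the same direction in both diet comparisons. Tm4sf19, Plin1 and Gm1141, a predicted gene, were named outside this rule.

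Mouse numbers are shared by the groups. Over 36 same-numbered pairs, the correlation of deviations ran from -0.50 to 0.35 (median -0.002), and 9 exceeded 0.1, so the numbers were not taken to pair the mice. Nothing in the labels says that mice of one group came from separate cages. Alternatives covered scaling, a filter on the lowest 40% of values, probe sets, array weights, priors, mice left out and covariates; the marker covariates and the rescaling of named genes were chosen after seeing the data.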

Additional observations from a re-analysis of the deposited data

Results flagged for a closer look

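In 9 of the 93 genes that the naming rule or the lists gave, the diet difference in conventional mice minus that in germ-free mice passed the limma test of the difference itself. It was -0.45 ± 0.08 log2 for Cd99l2 (SE, adjusted p = 0.0019), -1.55 ± 0.29 for Oxtr (0.0028), -0.39 ± 0.10 for Nr3c1 (0.021), -0.58 ± 0.15 for Mtmr1 (0.022), -0.51 ± 0.15 for Nqo2 (0.035), -0.51 ± 0.16 for Ffar4 (0.046) and -1.06 ± 0.33 for Cidea (0.047). It was 0.75 ± 0.17 for Sla (0.0092) and 0.60 ± 0.17 for Cebpd, a transcription factor of fat cell formation (0.034). The same difference for Gpr50 was -0.06 ± 0.54 log2, and of all genes 7.2% passed.

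Single mice stood apart from the other 5 of their group in 2 of 32 groups examined. Mtnr1a was 5.52 log2 in fish oil-fed conventional mouse 4, against 5.29 in the next mouse. Pltp was 12.89 log2 in lard-fed germ-free mouse 5, against 13.06 in the next. Chance gives such a gap in about 1 in 20 groups. No mouse stood apart in this way for Gpr50.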

How the results depend on the processing

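Bacterial status kept its direction for Gpr50 in all 38 alternatives, and its call in 37; the exception, with lipid-associated macrophage markers as a covariate, gave -0.48 log2 (limma adjusted p = 0.38). Adjusted p lay between 0.00018 and 0.031 in the others. With the mouse number as a replicate block the status difference was -1.24 log2 (adjusted p = 0.0055), and the block changed no call but that of Tgfbr1 by bacterial status (adjusted p = 0.057). Leaving out 1 mouse gave -1.38 to -1.11 log2 for status, 4.65 to 5.12 for diet in conventional and 4.68 to 5.13 in germ-free mice. With macrophage markers as a covariate the diet differences were 3.50 and 3.51 log2; with lipid-associated macrophage markers the conventional one was 3.57 and the status difference with fish oil -0.15. The diet difference in conventional minus that in germ-free mice took either sign, from -0.66 to 0.53 log2, and no tested value was reversed. Of 19938 genes, 9468 were called for diet in germ-free mice and 3899 for status. With all 35556 probe sets in the fit, 14835 and 6241 probe sets were called, counts out of that larger total. Leaving out mice 2, 4 and 5 of the lard-fed germ-free group gave 5278 and 2365 genes, while the liver covariate gave 2569 for status. Among named genes 6 alternatives ended a call and 6 made one; rescaling moved 9 list counts by more than 1.5 times, among them melatonin genes lower in germ-free mice (1 to 0), partners lower with lard (1 to 2 in conventional, 1 to 0 in germ-free mice). 1 probe set per gene limits what is known of Gpr50 isoforms.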
